A study of Macaca mulatta with 27 samples.

Results

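The comparison set rhesus macaque pluripotent stem cells (PSCs) reprogrammed with the TL-CDK8/19i protocol against cells reprogrammed with 4i/L/b, by bulk RNA sequencing. Its 6 libraries, 3 per protocol, were taken by their labels from the 27 libraries of the series, and all genes of the count tables entered. The question was how cells described as of 1 line differ after 2 protocols that are both meant to move PSCs from the primed to the naive state of pluripotency. In TL-CDK8/19i, spelled TL-CDK8i in the labels, cells received LIF, tamoxifen, and an inhibitor of the kinases CDK8 and CDK19 in place of the MEK and GSK3β inhibitors of the related TL2i protocol. The composition of the 4i/L/b medium, a protocol taken from earlier work, is not given in the sources used here. Primed cells, with 6 libraries, were the starting state of the study and serve here as the reference level. Their titles name 2 sets, Primed and Primed 2, and the count columns are named in 2 sets of 3, J and K. No source ties the names of the columns to the titles, so the sets are called J and K here.

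By the study's methods, the cells derived from LyonES-tGFP-(S3), a clonal rhesus embryonic stem cell line made to carry a tauGFP transgene driven by the ubiquitous CAG promoter and a lentiviral STAT3-ERT2 fusion. STAT3-ERT2 is a form of the transcription factor STAT3 that is held inactive until tamoxifen binds its estrogen receptor part. Tamoxifen was a component of TL-CDK8/19i and was left out of 4i/L/b, so the effects of the inhibitors and of tamoxifen, with any STAT3-ERT2 it activated, cannot be told apart. The counts of ESR1, given below, were at or near 0 in TL-CDK8/19i replicates 2 and 3 and in primed set J. Whether those cells carried the fusion was not tested. The line was a single clone, so the libraries show no spread between clones. No source states that libraries of a group came from separate cultures, so the p-values measure the spread between these libraries, which may be technical.

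As background, primed PSCs resemble the epiblast shortly before gastrulation, and naive PSCs resemble the epiblast of the blastocyst. Both states share the transcription factors POU5F1 (OCT4), NANOG, and SOX2. LIF acts through its receptor, JAK kinases, and STAT3 to sustain naive pluripotency in mouse cells, and CDK8 and CDK19 are the kinases of the Mediator complex, which relays signals from enhancers to RNA polymerase II. The extracellular matrix, made of collagens, laminins, and adhesive glycoproteins, is laid down sparsely by pluripotent cells and in quantity by mesenchymal, endodermal, and neural crest derivatives.

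Levels are CPM, the counts of a gene scaled to library size with TMM factors over the 12 libraries of the 3 groups, and are given in the order of library numbers. They are compared within a gene and not between genes. Total counts were 8929940 to 11034150 in TL-CDK8/19i, 8375416 to 10610790 in 4i/L/b, and 7111886 to 15183387 in primed cells. A count of 3, taken as the floor, was worth 0.276 to 0.356 CPM in the 6 libraries. Intervals and floors cover counting error alone. A log2 fold change is TL-CDK8/19i minus 4i/L/b, with its standard error (SE), and a gene is called higher or lower when its adjusted p in edgeR's quasi-likelihood test was under 0.05.

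1 of the 6 libraries stood apart from its group. TL-CDK8/19i replicate 1 lay at 58.4 on the first principal component of the 6 libraries, against 71.4 and 80.3 for the other TL-CDK8/19i libraries and -71.5 to -69 for 4i/L/b, on an axis that held 86.7% of the variance. On the second component it lay at -33, against 15.5 and 13.5 for replicates 2 and 3 and -1.4 to 3.35 for 4i/L/b. Its correlations of log2 CPM with replicates 2 and 3 were 0.98 and 0.979, only slightly below the 0.985 between those 2 libraries. It held 20 counts or more of 9 genes that had at most 3 counts in each of the other TL-CDK8/19i libraries. The largest was PEG3, an imprinted zinc finger gene, with 763 counts in replicate 1 and 0 in replicates 2 and 3. For 7 of the 9 genes the protocol with the highest mean was TL2i, and their level in replicate 1 was 13.2% to 21% of the TL2i mean. The share of all genes with their highest mean in TL2i was not counted, and the search was made for this library alone. The source of these counts was not tested. Results that rest on this library are given with and without it.

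ESR1, the estrogen receptor gene, whose hormone-binding part is the source of ERT2, was high in 4i/L/b and, within TL-CDK8/19i, was found mostly in replicate 1. It had 305, 1, and 5 counts in TL-CDK8/19i and 5978 to 8227 counts in 4i/L/b, which was 33.7, 0.106, and 0.46 CPM in TL-CDK8/19i and 767, 709.8, and 728 CPM in 4i/L/b (log2 fold change -6.06 with all libraries, -11.21 without replicate 1, and -5.44 without replicate 3). In primed cells, the 3 libraries of set J lay at 0 to 0.859 CPM and the 3 of set K at 359 to 408 CPM on the scale of all 27 libraries. STAT3, the other gene in the fusion, was 248, 147, and 164 CPM in TL-CDK8/19i and 353, 344, and 336 CPM in 4i/L/b (log2 fold change -0.88, SE 0.14, adjusted p = 5.5e-05). Whether counts of ESR1 and STAT3 came from the STAT3-ERT2 transgene was not tested. TL-CDK8/19i replicate 1 was the highest of its group for both genes. The plot of ESR1 and PEG3 in all libraries shows where replicate 1 lay.

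**Figure D1:**
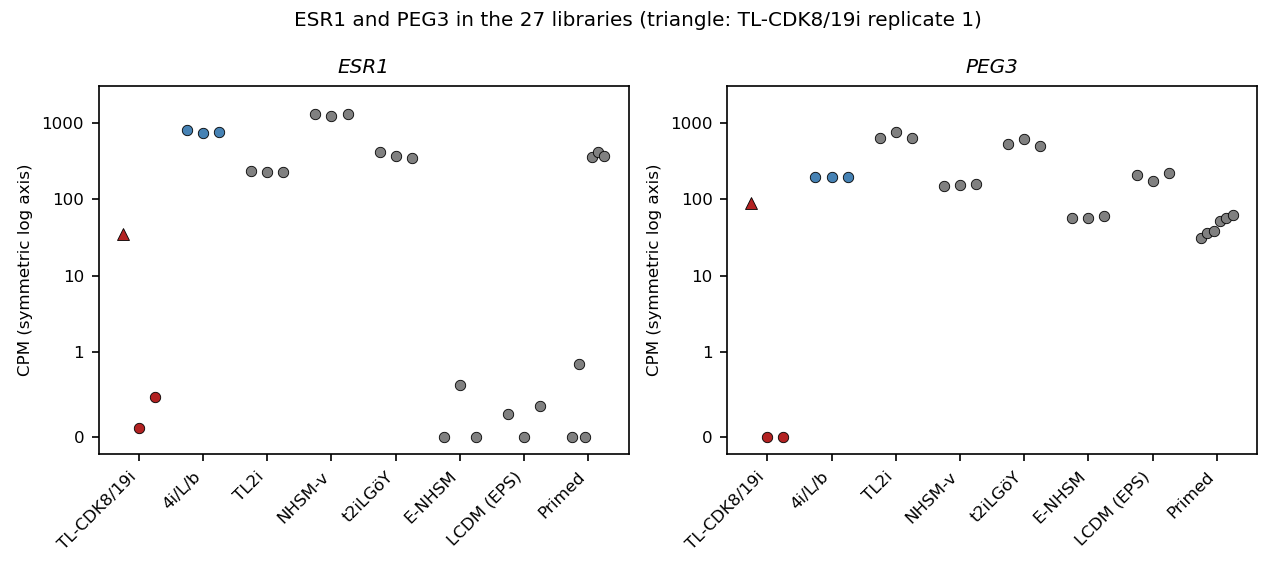
ESR1 (left) and PEG3 (right) in each of the 27 libraries by group, as CPM on a symmetric log axis that is linear below 1 CPM; each point is 1 library and TL-CDK8/19i replicate 1 is drawn as a triangle. In TL-CDK8/19i, the triangle lies apart from replicates 2 and 3 for both genes, which are at or near 0 there, while the 4i/L/b libraries lie together at a high level.

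Of 13445 genes tested, 8917 (66.3%) differed between the protocols. TL-CDK8/19i was higher for 4504 (33.5%) and lower for 4413 (32.8%), and the difference was at least 2-fold for 1889 (14%) and 1843 (13.7%), respectively. The median log2 fold change over all genes was 0. Without TL-CDK8/19i replicate 1, 4584 genes were higher and 4533 lower of 13712 tested, 8577 of the 8917 calls were kept, and 0 turned direction. Counts in the gene lists below are read against these shares, because so many genes were called. Correlations of log2 CPM were 0.979 to 0.985 between TL-CDK8/19i libraries, 0.986 to 0.988 between 4i/L/b libraries, and 0.836 to 0.875 across the protocols. In the fit of all 27 libraries, in which the 8 groups share 1 estimate of the spread, 3466 (23.5%) of 14752 genes were higher and 3157 (21.4%) lower. It is called the 27-library fit below, where its values are given if they end a call or move a count by over 1.5 times. Against primed cells, 6162 of 13359 genes (46.1%) differed in TL-CDK8/19i and 7543 of 13558 (55.6%) in 4i/L/b, in 2 fits that share the 6 primed libraries. With set J alone 6053 (46.4%) and 7382 (56.2%) genes differed, and with set K alone 7020 (53.1%) and 8498 (64%). For 15 of the 37 genes whose primed levels are given below, the libraries of set J and set K did not overlap, and the TL-CDK8/19i libraries lay between the sets for NNAT.

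**Figure D2:**
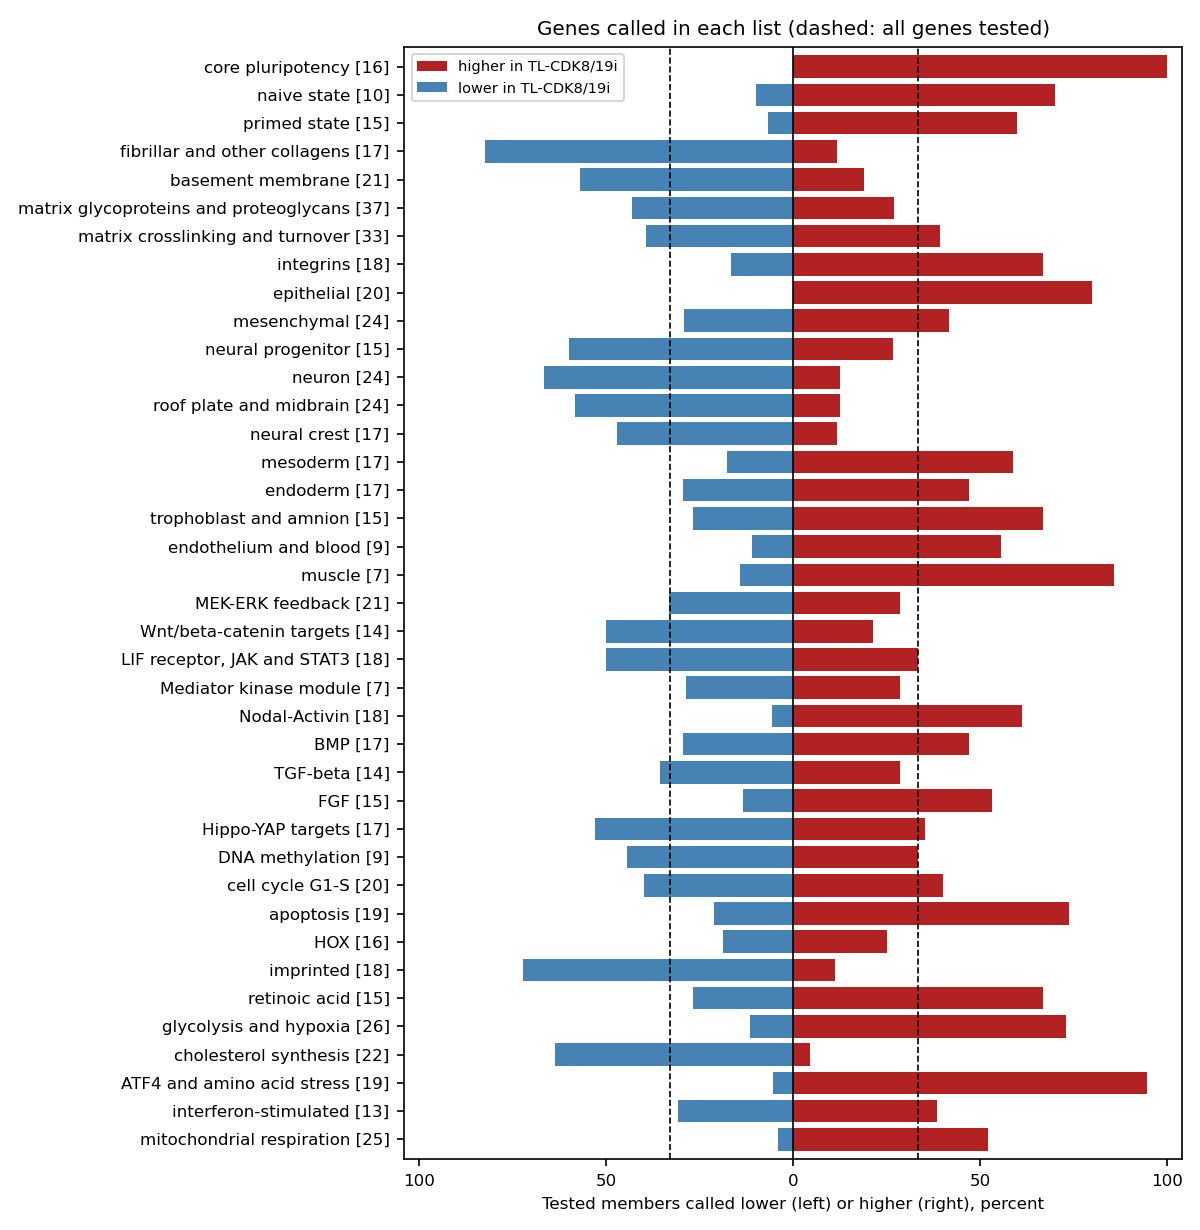
Share of the tested members of each gene list called higher (right) or lower (left) in TL-CDK8/19i than in 4i/L/b, in percent, with the number of tested members in brackets. Dashed lines mark the shares over all genes, 33.5% higher and 32.8% lower; core pluripotency reaches 100% on the right and fibrillar and other collagens 82.4% on the left.

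TL-CDK8/19i cells carried the transcripts of the pluripotency network, in sum below primed cells, and 4i/L/b cells had almost none of several of them. The comparison was chosen knowing that only TL-CDK8/19i kept POU5F1, so the POU5F1 values describe that choice and are not independent support. Of 17 core pluripotency genes, 16 were in the tables and were tested. They summed to 2450 to 3280 CPM in TL-CDK8/19i, 363 to 407 CPM in 4i/L/b, and 7850 to 9280 CPM in primed cells. All 16 were higher in TL-CDK8/19i, against 33.5% of all genes, with a median log2 fold change of 3.76. Members near 0 in 4i/L/b, such as NANOG and UTF1, could pass the filter on low counts only through TL-CDK8/19i. Their direction was thus fixed in advance and is not independent support. With at least 10 counts in every library, 10 of 10 members were higher, against 3983 of 11944 genes. POU5F1 was 466, 396, and 576 CPM in TL-CDK8/19i and 0.559, 0.475, and 1.58 CPM in 4i/L/b, against 1081 to 1252 CPM (median 1143) in primed cells (log2 fold change 9.04, SE 0.23, adjusted p = 1.3e-13 in edgeR's quasi-likelihood test, and a log2 fold change of 9.81 without 4i/L/b replicate 3). The groups did not overlap, and the TL-CDK8/19i libraries were below the primed range (-1.29 on the log2 scale against primed, adjusted p = 2.5e-07).

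NANOG, a homeodomain factor of the same network, was 70.4, 48.6, and 92.8 CPM in TL-CDK8/19i and 0.0932, 0.119, and 0 CPM in 4i/L/b. The 4i/L/b libraries held 2 counts of it in all, against 2107 in TL-CDK8/19i, a ratio of 1073 (95% counting interval 296.5 to 8862). PRDM14, a repressor of differentiation genes in PSCs, was 114, 77.8, and 103 CPM in TL-CDK8/19i and 0.0932, 0.119, and 0 CPM in 4i/L/b, again with 2 counts in all 4i/L/b libraries. DPPA2, a chromatin protein of early embryos, was 40.6, 48.2, and 66 CPM in TL-CDK8/19i, above the primed range of 5.76 to 14.7 CPM (median 13), and 4i/L/b held 1 count. UTF1, a chromatin factor of undifferentiated cells, was 4.53, 2.22, and 3.95 CPM in TL-CDK8/19i and 0 in 4i/L/b, which makes it at least 35.6-fold higher over the group. These 4 genes and POU5F1 were at or near 0 in 4i/L/b, whose cells the labels name embryonic stem cells. Other core members, given below, were still found there.

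SOX2 differed least. It was 106, 101, and 121 CPM in TL-CDK8/19i and 74, 73.5, and 69.7 CPM in 4i/L/b (log2 fold change 0.60, SE 0.09, adjusted p = 3e-05), with both protocols below the primed 207 to 328 CPM (median 259). SOX2 is also a factor of neural progenitors. LIN28B, an RNA-binding repressor of let-7 microRNAs, was likewise close between the groups, at 233, 211, and 238 CPM in TL-CDK8/19i and 152, 115, and 123 CPM in 4i/L/b (0.81, SE 0.10). Its paralog LIN28A was 270.1, 204, and 279.7 CPM in TL-CDK8/19i and 41.4, 39.9, and 42.4 CPM in 4i/L/b (2.62, SE 0.12), a larger difference.

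The remaining core members ranged from log2 fold changes of 1.95 to 6.96, the latter 7.57 without 4i/L/b replicate 3. TDGF1, the Nodal co-receptor, was 21, 13.1, and 32.2 CPM in TL-CDK8/19i and 0.0932, 0.119, and 0.278 CPM in 4i/L/b, and its TL-CDK8/19i libraries were far below the primed 174 to 212 CPM (median 194). DPPA4, the partner of DPPA2, was 231, 216, and 293 CPM in TL-CDK8/19i and 4.94, 6.41, and 3.06 CPM in 4i/L/b. DNMT3B, a de novo DNA methyltransferase of primed cells, was 890, 594, and 809 CPM in TL-CDK8/19i and 40.5, 39.8, and 38.3 CPM in 4i/L/b. Both were lower in either protocol than in primed cells, where DNMT3B was 2866 to 3340 CPM (median 2968). L1TD1, an RNA-binding protein of PSCs, had a log2 fold change of 3.23, SE 0.15. SALL4, a zinc finger factor, had 3, SE 0.10. GDF3, a TGF-beta family ligand, had 2.74, SE 0.24 and was above its primed range of 3.67 to 8.73 CPM (median 5.86), at 15.5, 14.5, and 17.7 CPM, in TL-CDK8/19i. TRIM71, a let-7 target, had 2.54, SE 0.09, and FOXD3, a forkhead factor that also marks neural crest, had 1.95, SE 0.28.

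**Figure D3:**
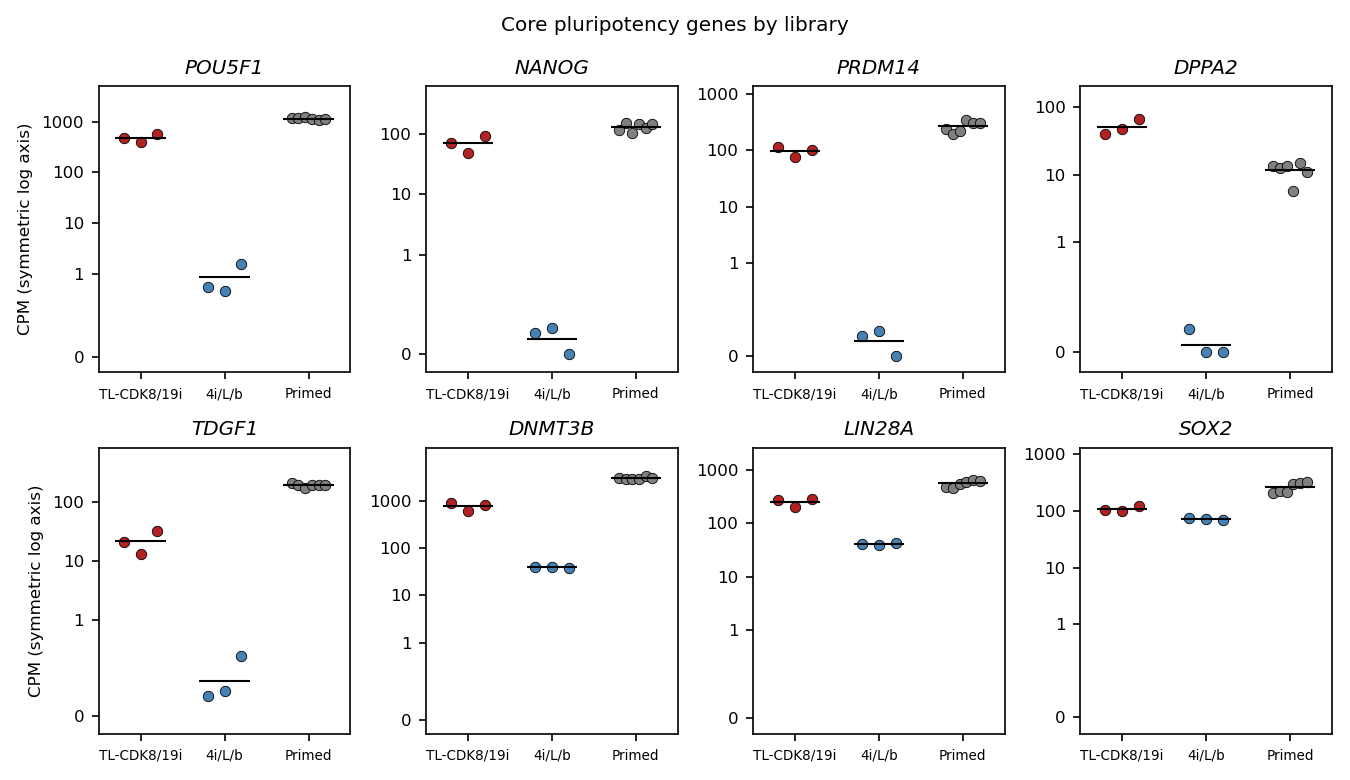
Levels of 8 pluripotency genes in each library of TL-CDK8/19i, 4i/L/b, and primed cells, as CPM on a symmetric log axis that is linear below 0.3 CPM; each point is 1 library and bars are group means. POU5F1, NANOG, PRDM14, DPPA2, and TDGF1 lie at or near 0 in 4i/L/b, whereas SOX2 lies within a factor of 2 in the 2 protocols.

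Naive-state genes were mixed in the 2 protocols. Of 19 genes in the list, 18 were in the tables and 10 passed the filter on low counts, of which 7 were higher in TL-CDK8/19i (4 without 4i/L/b replicate 3, and 4 of 12 in the 27-library fit) and 1 was lower (2 without TL-CDK8/19i replicate 2, median 0.96). NR5A2, a nuclear receptor that can activate POU5F1, was 9.39, 8.13, and 11.9 CPM in TL-CDK8/19i and 0.186, 0, and 0.185 CPM in 4i/L/b, against 30.8 to 45 CPM (median 36) in primed cells. GBX2, a homeobox gene induced by STAT3 in mouse naive cells, was 10.4, 6.65, and 9.28 CPM in TL-CDK8/19i and 0.0932, 0.831, and 0.464 CPM in 4i/L/b. ZFP42 (REX1) was 20.3, 26.2, and 22.7 CPM in TL-CDK8/19i and 5.69, 6.41, and 5.75 CPM in 4i/L/b, and primed cells were higher than either at 46.8 to 73.5 CPM (median 58.4). These 3 genes were low in 4i/L/b and were not above the primed range in TL-CDK8/19i.

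KLF5, a Krüppel-like factor of the naive network, went another way. It was 158, 238, and 202 CPM in TL-CDK8/19i and 175, 143, and 139 CPM in 4i/L/b, a small difference (0.40, SE 0.13) whose call was lost without TL-CDK8/19i replicate 2 or 4i/L/b replicate 2 or 3 (adjusted p = 0.064, 0.061, and 0.063), with both protocols far above the primed 2.21 to 21.9 CPM (median 6). TFAP2C, an activator of naive enhancers in human cells, was 41, 39.9, and 33.6 CPM in TL-CDK8/19i and 17.1, 21.9, and 23.6 CPM in 4i/L/b (0.88, SE 0.14). TFE3 was the member called lower, at 38.6, 35.6, and 32.4 CPM in TL-CDK8/19i and 57.6, 55.1, and 59.2 CPM in 4i/L/b. KLF17, a marker of human naive cells, had 0 counts in all 6 libraries, and KLF4 was 1.44, 3.06, and 1.01 CPM in TL-CDK8/19i and 3.92, 2.38, and 3.34 CPM in 4i/L/b, which did not pass the test (adjusted p = 0.11, and 0.019 without TL-CDK8/19i replicate 2). SUSD2, a surface protein of human naive cells, was called with all libraries (adjusted p = 0.031) and not without TL-CDK8/19i replicate 1 (adjusted p = 0.088) or any of 3 other libraries (adjusted p = 0.07 to 0.14).

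Primed-state genes were higher in TL-CDK8/19i for 9 of 15 tested members and lower for 1. SALL1, a zinc finger gene, was 101, 79.3, and 118 CPM in TL-CDK8/19i and 15.2, 20.1, and 13.4 CPM in 4i/L/b, and its primed range was 90.3 to 107 CPM (median 102). SFRP2, a secreted Wnt modulator, was 169, 173, and 163 CPM in TL-CDK8/19i and 31, 31.5, and 33.9 CPM in 4i/L/b, against 144 to 201 CPM (median 158) in primed cells. For both, the difference between TL-CDK8/19i and primed cells did not pass the test (SALL1 adjusted p = 0.82, SFRP2 adjusted p = 0.98), nor did it with either primed set alone, and 4i/L/b was lower than primed cells, with log2 fold changes of -2.67 for SALL1 and -2.41 for SFRP2. OTX2, an epiblast and forebrain factor, was 55.9, 35, and 65 CPM in TL-CDK8/19i and 26.1, 26.5, and 27.9 CPM in 4i/L/b. CDH2 (N-cadherin) was the member called lower (-0.22, SE 0.08, adjusted p = 0.027), and it lost the call without TL-CDK8/19i replicate 1 (adjusted p = 0.091) or 4i/L/b replicate 2 or 3 (adjusted p = 0.12 and 0.058), and in the 27-library fit (adjusted p = 0.24).

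Both protocols carried matrix transcripts well above primed cells, and 4i/L/b carried more of the collagens. That both carried high matrix transcripts was known when the comparison was chosen. The summed level of 17 collagen genes was 10400 to 13400 CPM in TL-CDK8/19i, 16200 to 20700 CPM in 4i/L/b, and 1600 to 2890 CPM in primed cells. Of these 17, 14 were lower in TL-CDK8/19i, 2 were higher, and 1 did not pass the test, with a median log2 fold change of -1.19. The list holds fibrillar collagens and the collagens that associate with fibrils or form microfibrils.

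COL1A1 and COL1A2 encode the chains of collagen I. COL1A1 was 7010, 8002, and 6089 CPM in TL-CDK8/19i and 7594, 9811, and 9454 CPM in 4i/L/b (log2 fold change -0.34, SE 0.11, adjusted p = 0.015), and the lowest 4i/L/b library lay within the TL-CDK8/19i range. That call was lost without TL-CDK8/19i replicate 3 (adjusted p = 0.079) and without 4i/L/b replicate 2 or 3 (adjusted p = 0.085 and 0.078), and in the 27-library fit (adjusted p = 0.28). COL1A2 was 1826, 2055, and 1672 CPM in TL-CDK8/19i and 2751, 3598, and 3303 CPM in 4i/L/b (-0.79, SE 0.10), without overlap. Both were above primed cells in either protocol, where COL1A1 was 639 to 1747 CPM (median 1331).

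COL2A1, the collagen of cartilage and notochord, differed most among the abundant members. It was 442, 377, and 319 CPM in TL-CDK8/19i and 1559, 1785, and 1700 CPM in 4i/L/b (log2 fold change -2.14, SE 0.11, adjusted p = 1.8e-10), and primed cells had 6.05 to 20.7 CPM (median 10.1). Its companions COL9A1 (-1.23, SE 0.25), COL9A2 (-2.15, SE 0.19), and COL11A1 (-0.92, SE 0.12) were lower too. COL3A1, the fibrillar collagen of soft tissue, was 428, 423, and 353 CPM in TL-CDK8/19i and 759, 1083, and 946 CPM in 4i/L/b.

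The collagen VI chains, which form beaded microfibrils around cells, were all lower. COL6A3 was 275, 316, and 232 CPM in TL-CDK8/19i and 777, 1007, and 931 CPM in 4i/L/b, COL6A1 had a log2 fold change of -1.78, SE 0.14, and COL6A2 had -1.49, SE 0.11. The fibril-associated COL12A1 (-0.93, SE 0.10) and COL16A1 (-1.37, SE 0.15), with COL26A1 (-1.19, SE 0.11) and COL27A1 (-0.62, SE 0.09), were lower as well.

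The 2 exceptions were COL5A2, a chain of the collagen V that nucleates fibrils, at 715, 872, and 688 CPM in TL-CDK8/19i and 364, 449, and 453 CPM in 4i/L/b (log2 fold change 0.85, SE 0.11, adjusted p = 3.5e-06), and the fibril-associated COL14A1, at 17.7, 14.9, and 19.2 CPM in TL-CDK8/19i and 6.15, 6.06, and 4.82 CPM in 4i/L/b. COL5A3, another collagen V chain, did not pass the test (-0.28, SE 0.15, adjusted p = 0.13, and 0.041 without TL-CDK8/19i replicate 2).

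**Figure D4:**
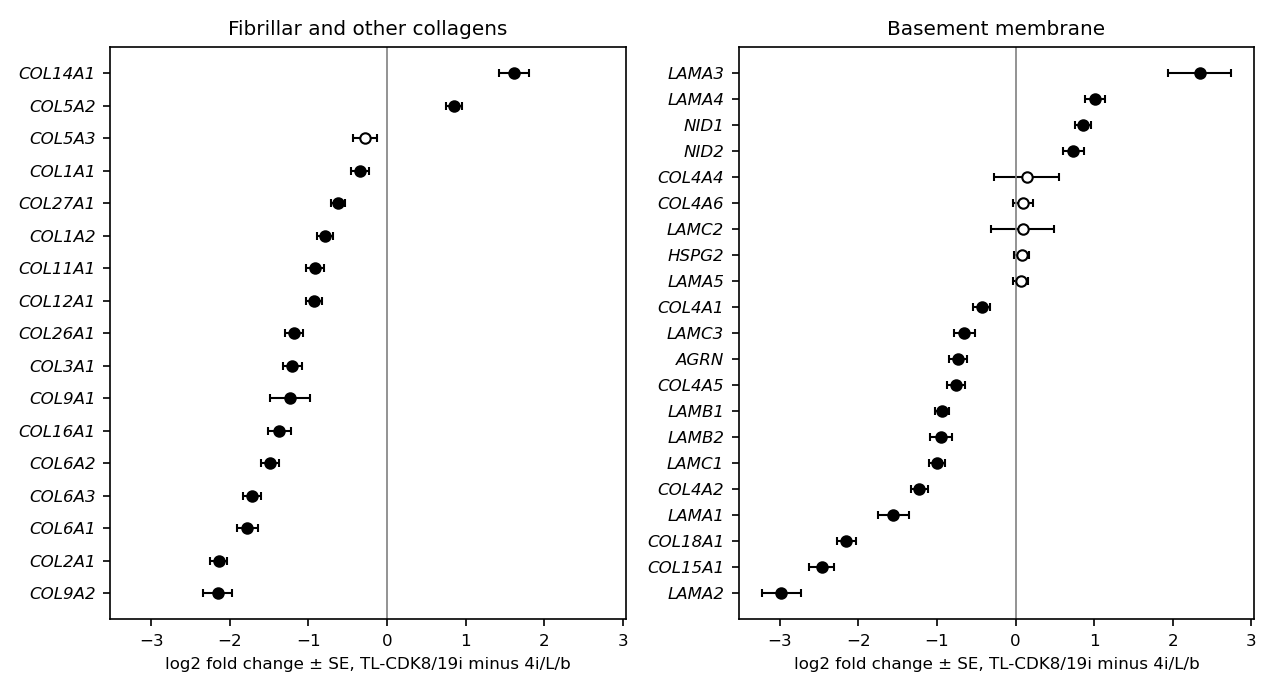
Log2 fold change of TL-CDK8/19i against 4i/L/b with its standard error for the collagen and basement membrane genes tested, ordered within each list; filled points passed the test at an adjusted p under 0.05 and open points did not. Most points lie left of 0, and COL14A1, COL5A2, LAMA3, LAMA4, NID1, and NID2 are filled points to its right.

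Basement membrane genes, which encode the sheet that underlies epithelia, were lower in TL-CDK8/19i for 12 of 21 tested members and higher for 4. COL4A1 and COL4A2 encode the collagen IV chains of nearly all basement membranes and are neighbours transcribed from a shared promoter region, yet they differed unequally. COL4A1 was 1227, 1456, and 1066 CPM in TL-CDK8/19i and 1506, 1881, and 1700 CPM in 4i/L/b (-0.43, SE 0.11), and COL4A2 was 1003, 1116, and 817 CPM in TL-CDK8/19i and 2072, 2535, and 2302 CPM in 4i/L/b (-1.23, SE 0.11). COL18A1, the source of endostatin, was 446, 348, and 317 CPM in TL-CDK8/19i and 1480, 1806, and 1681 CPM in 4i/L/b.

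Laminins are trimers of an alpha, a beta, and a gamma chain. The common beta and gamma chains were lower in TL-CDK8/19i, LAMB1 at -0.93 (SE 0.09) and LAMC1 at -0.99 (SE 0.10). The alpha chains went in different directions. LAMA1, the embryonic chain, was 210.2, 99.9, and 106 CPM in TL-CDK8/19i and 388, 434, and 408 CPM in 4i/L/b, and replicate 1 was the highest of its group. LAMA2, the muscle chain, was 2.43, 1.48, and 2.67 CPM in TL-CDK8/19i and 15.8, 16.6, and 20.2 CPM in 4i/L/b, the lowest log2 fold change of the list (-2.98, SE 0.25). LAMA4, the chain of vessels and mesenchyme, was 146, 191, and 168 CPM in TL-CDK8/19i and 65.5, 95.6, and 91.3 CPM in 4i/L/b, and LAMA3, the epithelial chain, was 6.63, 8.55, and 4.96 CPM in TL-CDK8/19i and 1.21, 0.594, and 2.04 CPM in 4i/L/b (2.34, SE 0.40, not called in the 27-library fit, adjusted p = 0.14).

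Nidogens bridge laminin and collagen IV. NID1 was 487, 592, and 471 CPM in TL-CDK8/19i and 255, 319, and 284 CPM in 4i/L/b, higher in TL-CDK8/19i, as was NID2 (0.74, SE 0.13). HSPG2 (perlecan) was 1578, 1819, and 1543 CPM in TL-CDK8/19i and 1479, 1749, and 1477 CPM in 4i/L/b and did not pass the test (adjusted p = 0.47).

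Among matrix glycoproteins and proteoglycans, 10 of 37 tested members were higher in TL-CDK8/19i (27%) and 16 lower (43.2%), against 33.5% and 32.8% of all genes. SPP1 (osteopontin), a secreted integrin ligand, was the largest difference, at 2774, 2841, and 3636 CPM in TL-CDK8/19i and 21.4, 26, and 25.4 CPM in 4i/L/b (log2 fold change 7, SE 0.14, adjusted p = 1.7e-14). Primed cells had 1260 to 2740 CPM (median 1379), so 4i/L/b was below them and TL-CDK8/19i above them. THBS4, a thrombospondin of tendon and muscle, was 53.9, 49.7, and 69.1 CPM in TL-CDK8/19i and 0.186, 1.31, and 0.464 CPM in 4i/L/b.

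FN1 (fibronectin) was lower in TL-CDK8/19i, at 4936, 5067, and 3368 CPM in TL-CDK8/19i and 7609, 9673, and 8689 CPM in 4i/L/b (-0.95, SE 0.13), and primed cells had 769 to 1613 CPM (median 1204). THBS1, an activator of latent TGF-beta, was 2341, 2488, and 2050 CPM in TL-CDK8/19i and 8200, 9509, and 8569 CPM in 4i/L/b. TNC (tenascin C), a glycoprotein of embryonic mesenchyme and neural crest paths, was 233, 209, and 139.5 CPM in TL-CDK8/19i and 921, 1095, and 1004 CPM in 4i/L/b. SPARC, a collagen-binding protein, was 2442, 2958, and 2331 CPM in TL-CDK8/19i and 2038, 2612, and 2370 CPM in 4i/L/b and did not pass the test (adjusted p = 0.23). FBN2 (fibrillin 2) was 1053, 1522, and 1118 CPM in TL-CDK8/19i and 1244, 1521, and 1396 CPM in 4i/L/b and did not pass it either (adjusted p = 0.24, and 0.0061 without TL-CDK8/19i replicate 2). Both genes were above primed cells in either protocol.

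DCN (decorin) and LUM (lumican) are small proteoglycans of fibroblasts. DCN was 4.75, 3.8, and 4.96 CPM in TL-CDK8/19i and 25.4, 45.4, and 49.4 CPM in 4i/L/b, and LUM was 7.62, 9.19, and 3.77 CPM in TL-CDK8/19i and 31.2, 60.4, and 44.2 CPM in 4i/L/b, against 0 in all 6 primed libraries for both genes. HAPLN1, a link protein of hyaluronan matrix, did not pass the test with all libraries (adjusted p = 0.44) and was lower without replicate 1 (-2.09, adjusted p = 2e-04).

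Enzymes that process and remodel the matrix were divided, 13 higher and 13 lower of 33 (39.4% each, against 33.5% and 32.8% of all genes). In the 27-library fit 8 were higher and 7 lower, near the 23.5% and 21.4% of all genes there. PLOD2, a lysyl hydroxylase of collagen crosslinks, was 159.9, 222, and 143 CPM in TL-CDK8/19i and 52.9, 63.3, and 60.1 CPM in 4i/L/b, and the prolyl hydroxylases P4HA1 (0.92, SE 0.09) and P4HA2 (0.89, SE 0.15) were higher too. LOXL1, a lysyl oxidase that crosslinks elastin, was lower, at 142, 159, and 142 CPM in TL-CDK8/19i and 290.4, 333, and 309 CPM in 4i/L/b. The membrane protease MMP24 was the highest (3.22, SE 0.36, and 4.09 without 4i/L/b replicate 3) and ADAMTS12, a cartilage matrix protease, the lowest (-1.86, SE 0.11). SERPINH1 (HSP47), the collagen chaperone, was 758, 856, and 818 CPM in TL-CDK8/19i and 799, 1003, and 905 CPM in 4i/L/b and did not pass the test (adjusted p = 0.17, and 0.045 without 4i/L/b replicate 1).

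Integrins, the receptors for these proteins, were higher for 12 of 18 tested members and lower for 3. ITGB1, the beta chain shared by most matrix receptors, was 3523, 4678, and 4399 CPM in TL-CDK8/19i and 1573, 1904, and 1773 CPM in 4i/L/b (log2 fold change 1.27, SE 0.11, adjusted p = 4.7e-08). ITGA5, its partner in the fibronectin receptor, was 769, 975, and 813 CPM in TL-CDK8/19i and 385, 461, and 417 CPM in 4i/L/b, and ITGA6, its partner in laminin receptors, was 494, 548, and 627 CPM in TL-CDK8/19i and 218, 227, and 197 CPM in 4i/L/b. ITGB3, a beta chain that binds osteopontin and vitronectin, was 17.7, 30.7, and 15.2 CPM in TL-CDK8/19i and 1.68, 1.07, and 0.464 CPM in 4i/L/b. The 3 lower members were ITGA2, the collagen-binding alpha chain, at 2.76, 3.7, and 1.38 CPM in TL-CDK8/19i and 53.6, 47.3, and 47.2 CPM in 4i/L/b, with ITGB8 (-3.46, SE 0.14), an activator of latent TGF-beta, and the collagen receptor chain ITGA10 (-2.40, SE 0.38, not called in the 27-library fit, adjusted p = 0.08).

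Epithelial genes were higher in TL-CDK8/19i for 16 of 20 tested members and lower for 0, and 4 did not pass edgeR's quasi-likelihood test. Members near 0 in 4i/L/b, such as KRT7, could pass the filter on low counts only through TL-CDK8/19i, which fixed their direction. With at least 10 counts in every library, 13 of 16 were higher. KRT7, a keratin of simple epithelia and of trophoblast and amnion, was 124, 208, and 132 CPM in TL-CDK8/19i and 0.0932, 0, and 0.835 CPM in 4i/L/b, above the primed 1.38 to 4.28 CPM (median 2.9). KRT8, a keratin of simple epithelia, was 352, 439.8, and 347 CPM in TL-CDK8/19i and 78.8, 79.5, and 75.8 CPM in 4i/L/b. OCLN (occludin), a tight junction protein, was 144, 139, and 173 CPM in TL-CDK8/19i and 20.5, 18.8, and 14.1 CPM in 4i/L/b. CLDN4, another, was 29.9, 34.3, and 27.4 CPM in TL-CDK8/19i and 2.33, 2.97, and 3.15 CPM in 4i/L/b.

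E-cadherin, encoded by CDH1, was higher in TL-CDK8/19i than in 4i/L/b and below primed cells in both. Its level was 25.9, 8.98, and 14.6 CPM in TL-CDK8/19i and 2.05, 2.97, and 2.69 CPM in 4i/L/b, with primed cells at 29.8 to 105 CPM (median 64.1). EPCAM, an adhesion protein of PSCs and epithelia, was 36.9, 22.1, and 24.6 CPM in TL-CDK8/19i and 8.11, 12.6, and 9.55 CPM in 4i/L/b, with primed cells at 143 to 201 CPM (median 171), and ESRP1, a splicing factor of epithelial isoforms, was 16.8, 9.08, and 16.9 CPM in TL-CDK8/19i and 1.86, 1.9, and 2.13 CPM in 4i/L/b. All 6 reprogrammed libraries lay below the primed range for the 3 genes.

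Mesenchymal genes were found in quantity in both protocols. In TL-CDK8/19i, 10 of 24 were higher (41.7%) and 7 lower (29.2%), against 33.5% and 32.8% of all genes. The counts were 14 higher and 5 lower without replicate 1, 4 lower without 4i/L/b replicate 2 or 3, and 3 lower in the 27-library fit. The contractile genes MYL9 (581, 752, and 714 CPM in TL-CDK8/19i and 132, 128, and 127 CPM in 4i/L/b) and ACTA2 (1118, 1674, and 1154 CPM in TL-CDK8/19i and 677, 695, and 673 CPM in 4i/L/b) were higher, and TWIST1, a factor of mesenchymal transition, was 28.8, 25, and 36.7 CPM in TL-CDK8/19i and 4.38, 7.96, and 8.53 CPM in 4i/L/b. The repressors of E-cadherin SNAI2 and ZEB1 were lower. Their paralogs SNAI1 and ZEB2 did not pass the test, and TWIST2, the paralog of TWIST1, was higher. SNAI2 was 20.8, 24, and 18.3 CPM in TL-CDK8/19i and 74.4, 57.1, and 64.3 CPM in 4i/L/b, and ZEB1 was 125, 143, and 129 CPM in TL-CDK8/19i and 259, 227, and 218 CPM in 4i/L/b. FAP, a fibroblast surface protease, was the lowest (-2.16, SE 0.30). VIM (vimentin) was 2206, 3134, and 2672 CPM in TL-CDK8/19i and 2805, 2769, and 2825 CPM in 4i/L/b and did not pass the test (adjusted p = 0.63), with both protocols above the primed 444 to 811 CPM (median 619). Fewer cells of a type and less RNA per cell cannot be told apart in bulk libraries.

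Neural and dorsal midline transcripts were more abundant in 4i/L/b than in TL-CDK8/19i. The neuron list summed to 933 to 1120 CPM in TL-CDK8/19i, 1580 to 1680 in 4i/L/b, and 382 to 458 in primed cells. In that order, roof plate and midbrain sums were 170 to 286, 724 to 756, and 38.8 to 69.3 CPM. Neural crest sums were 492 to 592, 942 to 991, and 186 to 279 CPM. Neural progenitor sums were 1980 to 2050, 2970 to 3200, and 2270 to 2560 CPM, so there TL-CDK8/19i lay below primed cells. Of 24 neuronal genes tested, 16 were lower and 3 higher, with a median of -1.45. DCC, the netrin receptor of growing axons, was 13.2, 7.08, and 5.33 CPM in TL-CDK8/19i and 154, 172, and 156 CPM in 4i/L/b (log2 fold change -4.25, SE 0.20, adjusted p = 5.8e-11). DCX (doublecortin), a microtubule protein of migrating neurons, was 30.3, 23.6, and 26.2 CPM in TL-CDK8/19i and 101, 96.2, and 86.8 CPM in 4i/L/b, MAP2 was 100, 57.7, and 44.7 CPM in TL-CDK8/19i and 392, 344, and 341 CPM in 4i/L/b, and INSM1, a factor of newborn neurons, was 1.77, 0.106, and 0.0919 CPM in TL-CDK8/19i and 14.1, 15.1, and 13.4 CPM in 4i/L/b. For MAP2, DCC, and INSM1, replicate 1 was the highest TL-CDK8/19i library. Replicates 2 and 3 held 2 counts of INSM1 against 423 in 4i/L/b, a ratio of 143.8 (95% counting interval 39.56 to 1191). SYT1, a synaptic vesicle protein, was the highest member, at 137, 139.8, and 154 CPM in TL-CDK8/19i and 34.1, 35.1, and 34.8 CPM in 4i/L/b, against 111 to 159 CPM (median 136) in primed cells, above set J and overlapping set K.

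Neural progenitor genes were lower for 9 of 15 and higher for 4. NR2F1 (COUP-TFI), a nuclear receptor of neural tissue, was 62.7, 8.34, and 5.79 CPM in TL-CDK8/19i and 263, 245, and 263 CPM in 4i/L/b, with a log2 fold change of -3.35 (SE 0.51) with all libraries and -5.19 without replicate 1. DACH1, a transcriptional cofactor, was 18.8, 8.55, and 5.24 CPM in TL-CDK8/19i and 100.4, 85.5, and 84.8 CPM in 4i/L/b (-3.07, and -3.71 without replicate 1), and POU3F2 (BRN2) was 8.07, 14.1, and 12.2 CPM in TL-CDK8/19i and 40.6, 42.8, and 36.7 CPM in 4i/L/b. SOX3, which is also a factor of PSCs, was higher, at 10.6, 11.4, and 9.74 CPM in TL-CDK8/19i and 0.746, 0.475, and 0.742 CPM in 4i/L/b. The forebrain genes RAX, SIX3, and SIX6 had at most 4 counts in the 3 libraries of either group, PAX6 was 2.98, 3.17, and 3.49 CPM in TL-CDK8/19i and 5.5, 4.87, and 3.71 CPM in 4i/L/b and did not pass the test (adjusted p = 0.13), and SOX1 was 3.98, 2.54, and 0.735 CPM in TL-CDK8/19i and 7.55, 7.6, and 4.82 CPM in 4i/L/b.

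Roof plate and midbrain genes mark the dorsal midline of the neural tube, which secretes Wnt and BMP ligands. In TL-CDK8/19i, 14 of 24 were lower and 3 higher, or 16 and 3 without replicate 1. ZIC4 was 10.8, 2.75, and 1.1 CPM in TL-CDK8/19i and 92.5, 96.2, and 82.5 CPM in 4i/L/b, ZIC1 was 28.3, 7.39, and 4.04 CPM in TL-CDK8/19i and 93.8, 93.9, and 89.3 CPM in 4i/L/b, and BMP5 was 25.3, 3.8, and 4.41 CPM in TL-CDK8/19i and 89.7, 89, and 83.8 CPM in 4i/L/b. In these 3 genes replicate 1 lay between the groups, and the log2 fold changes were -4.25, -2.83, and -2.99 with it and -5.57, -4.02, and -4.39 without it. LMX1A, the roof plate regulator, was 5.86, 0.211, and 0.184 CPM in TL-CDK8/19i and 7.27, 9.26, and 12.4 CPM in 4i/L/b, and its log2 fold change was -2.26 with all libraries, -5.52 without replicate 1, and -1.67 without replicate 3. DESeq2 did not call it (adjusted p = 0.16).

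WNT3A was 7.18, 4.33, and 3.68 CPM in TL-CDK8/19i and 33.7, 28.7, and 35.1 CPM in 4i/L/b, and RSPO3, a secreted amplifier of Wnt signals, was 17.8, 7.5, and 8.18 CPM in TL-CDK8/19i and 123, 103, and 126 CPM in 4i/L/b. Neither reached 3 CPM in any primed library. The higher members were GBX2, FGF8 (9.5, 7.5, and 13.5 CPM in TL-CDK8/19i and 1.68, 1.66, and 1.58 CPM in 4i/L/b), and EN1 (13.3, 14.9, and 11.8 CPM in TL-CDK8/19i and 2.52, 3.21, and 3.9 CPM in 4i/L/b, not called in the 27-library fit, adjusted p = 0.11), genes of the midbrain-hindbrain boundary, of which GBX2 and FGF8 are also expressed by pluripotent cells.

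Neural crest genes were lower for 8 of 17 and higher for 2, or 10 and 4 without TL-CDK8/19i replicate 1, with 4 higher also without 4i/L/b replicate 2. PAX3, a factor of dorsal neural tube and crest, was 27.7, 34.2, and 26.5 CPM in TL-CDK8/19i and 111, 101, and 113 CPM in 4i/L/b, TFAP2B, a factor of the AP-2 family, was 13.2, 7.39, and 4.32 CPM in TL-CDK8/19i and 61.3, 67.7, and 64.1 CPM in 4i/L/b, and KIT, the stem cell factor receptor, was 27.3, 22.6, and 18.4 CPM in TL-CDK8/19i and 111, 122, and 112 CPM in 4i/L/b. SOX10, a defining factor of the crest lineage, was 18.1, 26.3, and 14 CPM in TL-CDK8/19i and 28.5, 41.6, and 32.3 CPM in 4i/L/b, above the primed 0 to 2.62 CPM (median 1.9) in both, and was not called in the 27-library fit (adjusted p = 0.19). SOX9 was 6.96, 6.76, and 9.19 CPM in TL-CDK8/19i and 8.86, 8.67, and 7.88 CPM in 4i/L/b and did not pass the test (adjusted p = 0.6). The 2 higher members, TWIST1 and FOXD3, are counted above among mesenchymal and core pluripotency genes.

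**Figure D5:**
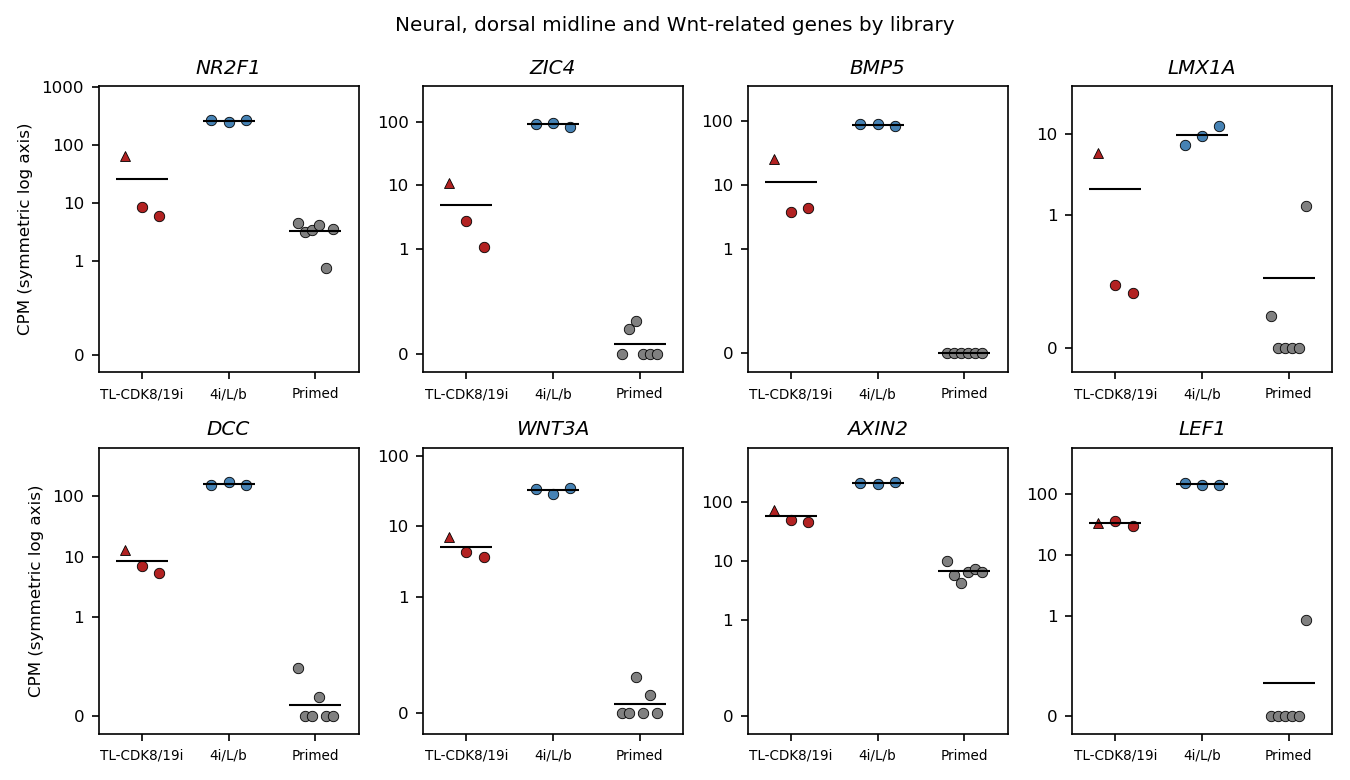
Levels of 8 neural, dorsal midline, and Wnt-related genes in each library of TL-CDK8/19i, 4i/L/b, and primed cells, as CPM on a symmetric log axis that is linear below 0.3 CPM; triangles mark TL-CDK8/19i replicate 1 and bars are group means. In all 8 genes the 4i/L/b libraries lie above TL-CDK8/19i, and for NR2F1, ZIC4, BMP5, and LMX1A the triangle lies between replicates 2 and 3 and the 4i/L/b libraries.

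Of 17 tested genes of early mesoderm, 10 were higher in TL-CDK8/19i and 3 lower (1 without 4i/L/b replicate 2), with a median of 1.66. In the 27-library fit 5 of 18 were higher and 0 lower, a share near the 23.5% of all genes there, and 4 of 10 were higher among genes with at least 10 counts in every library. EOMES, a T-box factor of the primitive streak, was 46.1, 37.1, and 76.2 CPM in TL-CDK8/19i and 6.15, 9.5, and 6.31 CPM in 4i/L/b, with a log2 fold change of 2.89, SE 0.24, and primed cells had 5.85 to 15.4 CPM (median 8.24). T (brachyury), a mesoderm regulator, was 3.76, 4.33, and 7.26 CPM in TL-CDK8/19i and 0, 0.237, and 0 CPM in 4i/L/b, with 154 and 2 counts in all, a ratio of 78.39 (95% counting interval 21.34 to 653.1). MIXL1, a streak homeobox gene, was 11.8, 6.44, and 17.2 CPM in TL-CDK8/19i and 1.49, 1.9, and 2.13 CPM in 4i/L/b. OSR1, of intermediate mesoderm, was the lowest (-1.97, SE 0.45, not called in the 27-library fit, adjusted p = 0.11), and MSGN1, of presomitic mesoderm, had 0 counts in the 6 libraries.

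Endoderm genes were divided, 8 higher (47.1%) and 5 lower (29.4%) of 17, against 33.5% and 32.8% of all genes. The lower count was 3 without TL-CDK8/19i replicate 2 or 3 or 4i/L/b replicate 2 or 3. In the 27-library fit 4 were higher, near the 23.5% of all genes there, and 1 was lower. AFP (alpha-fetoprotein) was 10.3, 8.98, and 14.1 CPM in TL-CDK8/19i and 0, 0.119, and 0.0927 CPM in 4i/L/b, with 331 and 2 counts in all, a ratio of 168.5 (95% counting interval 46.28 to 1397), against 0 to 13.7 CPM (median 10.4) in primed cells. CER1, a Nodal antagonist, was 31.3, 32.9, and 65.2 CPM in TL-CDK8/19i and 8.48, 14.8, and 11.9 CPM in 4i/L/b, and was not called in the 27-library fit (adjusted p = 0.1). SOX17, a defining factor, was 4.97, 2.11, and 7.17 CPM in TL-CDK8/19i and 3.73, 3.68, and 2.88 CPM in 4i/L/b and did not pass the test (adjusted p = 0.27, and 0.032 without TL-CDK8/19i replicate 2). TTR (transthyretin) was the lowest, at 0.111, 0.106, and 0.276 CPM in TL-CDK8/19i and 1.49, 1.9, and 2.32 CPM in 4i/L/b. APOB, a lipoprotein gene, was called higher with all libraries (1.74, adjusted p = 0.0046) and lost the call without replicate 1 (1.08, adjusted p = 0.056).

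Of the trophoblast and amnion list, 10 of 15 tested members were higher (66.7%) and 4 lower (26.7%), against 33.5% and 32.8% of all genes. The lower count was 2 without 4i/L/b replicate 3 and 1 in the 27-library fit. Members near 0 in 4i/L/b, such as KRT7 and GATA2, could pass the filter on low counts only through TL-CDK8/19i, which fixed their direction. With at least 10 counts in every library, 4 of 8 were higher. Beside KRT7, VTCN1, an immune checkpoint ligand, was 43, 27.2, and 39.6 CPM in TL-CDK8/19i and 0.28, 0, and 0.927 CPM in 4i/L/b, below the primed 102 to 138 CPM (median 108), and IGFBP3, an insulin-like growth factor carrier, was 255, 439, and 292 CPM in TL-CDK8/19i and 38.3, 45.8, and 48 CPM in 4i/L/b. GATA3, a trophoblast factor, was 4.75, 7.71, and 3.58 CPM in TL-CDK8/19i and 0.373, 0.356, and 0.278 CPM in 4i/L/b, and GATA2 had 99 counts against 3, a ratio of 33.6 (95% counting interval 11.17 to 165.7). The defining trophoblast genes CDX2, ELF5, TP63, and CGA were under the filter on low counts, with CDX2 at 0.442, 0, and 0.184 CPM in TL-CDK8/19i and 0.186, 0, and 0.464 CPM in 4i/L/b and ELF5 at 0 in all 6. TFAP2B was the lowest member, at the values given for neural crest.

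Muscle and heart genes were higher for 6 of 7 tested members (85.7%, against 33.5% of all genes). Members near 0 in 4i/L/b, such as TBX5, could pass the filter on low counts only through TL-CDK8/19i, which fixed their direction. ACTC1, the cardiac actin, was 962, 1244, and 1233 CPM in TL-CDK8/19i and 292, 292, and 270.2 CPM in 4i/L/b, DES (desmin) was 481, 630.2, and 664 CPM in TL-CDK8/19i and 158, 151, and 158 CPM in 4i/L/b, and TBX5, a heart and limb factor, was 12.4, 14.6, and 14.1 CPM in TL-CDK8/19i and 0.0932, 0.356, and 0 CPM in 4i/L/b, with 0 in primed cells. TNNI1, slow skeletal troponin, was lower, at 0.111, 0, and 1.01 CPM in TL-CDK8/19i and 8.02, 6.89, and 6.96 CPM in 4i/L/b. MYOD1, MYF5, and MYOG, the skeletal muscle determination factors, had at most 3 counts in the 3 libraries of either group.

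In the endothelial and blood list, 5 of 9 tested members were higher (55.6%) and 1 lower (11.1%), against 33.5% and 32.8% of all genes. The lower count was 2 without TL-CDK8/19i replicate 1 or 4i/L/b replicate 3. Members near 0 in 4i/L/b, such as CDH5, could pass the filter on low counts only through TL-CDK8/19i, which fixed their direction. With at least 10 counts in every library, 2 of 4 were higher. CDH5 (VE-cadherin) was 7.29, 15, and 14 CPM in TL-CDK8/19i and 0.0932, 0.237, and 0.371 CPM in 4i/L/b, PECAM1 was 6.41, 4.22, and 5.51 CPM in TL-CDK8/19i and 0.559, 1.54, and 0.742 CPM in 4i/L/b, and TEK, the angiopoietin receptor, was 98, 151, and 128 CPM in TL-CDK8/19i and 35.6, 39, and 37.3 CPM in 4i/L/b. RUNX1, a blood factor, was the lower member (-0.64, SE 0.15, not called in the 27-library fit, adjusted p = 0.19). PTPRC, the pan-leukocyte gene, and the embryonic globins HBZ and HBE1 had at most 3 counts in the 3 libraries of either group.

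Of 18 tested components and readouts of LIF signaling, 6 were higher (33.3%) and 9 lower (50%) in TL-CDK8/19i, with 2 higher in the 27-library fit. Over all genes the shares were 33.5% and 32.8%. Both receptor chains were lower. LIFR was 54.1, 37.6, and 39.4 CPM in TL-CDK8/19i and 94, 107, and 92.8 CPM in 4i/L/b (-1.16, SE 0.12), and IL6ST (gp130) was 143, 166, and 132 CPM in TL-CDK8/19i and 356, 371, and 336 CPM in 4i/L/b (-1.26, SE 0.09). SOCS3, the feedback inhibitor induced by STAT3, was 27.2, 25.9, and 35.8 CPM in TL-CDK8/19i and 24.1, 24.8, and 20.7 CPM in 4i/L/b, a small difference (log2 fold change 0.37, SE 0.14, adjusted p = 0.036) with primed cells at 22.6 to 56.4 CPM (median 39.7), a range that held all 6 libraries but the third 4i/L/b library. All 6 lay below primed set K and overlapped set J. The call was lost without TL-CDK8/19i replicate 3 (adjusted p = 0.22) and without each 4i/L/b library (adjusted p = 0.05 to 0.15), by DESeq2 (adjusted p = 0.051), and in the 27-library fit (adjusted p = 0.18). PIM3, a kinase gene induced by cytokines, was the lowest, at 13.7, 11.7, and 14.2 CPM in TL-CDK8/19i and 57.7, 49.4, and 53.5 CPM in 4i/L/b, and STAT5A the highest (1.05, SE 0.21, not called in the 27-library fit, adjusted p = 0.19).

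The Mediator kinase module is the target of the inhibitor in TL-CDK8/19i. Its transcripts differed by less than 2-fold, with 2 of 7 higher and 2 lower (28.6% each), close to the shares over all genes. CDK8 was 69.2, 69.2, and 73.3 CPM in TL-CDK8/19i and 53.7, 45.4, and 58.3 CPM in 4i/L/b (log2 fold change 0.43, SE 0.10, adjusted p = 0.0017), and its paralog CDK19 was 28.9, 28.4, and 27.8 CPM in TL-CDK8/19i and 58, 45.2, and 53.2 CPM in 4i/L/b (log2 fold change -0.87, SE 0.12, adjusted p = 7.7e-06). The scaffold MED12 was lower (-0.67, SE 0.11) and its paralog MED12L higher (0.69, SE 0.10). CCNC, the cyclin of the module, MED13, and MED13L did not pass the test (adjusted p = 0.3, 0.78, and 0.53). Transcript levels do not measure kinase activity.

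Targets of Wnt/beta-catenin were lower in TL-CDK8/19i for 7 of 14 tested members and higher for 3, all 7 by at least 2-fold. AXIN2, the feedback target used most widely as a readout, was 74.9, 51, and 47.1 CPM in TL-CDK8/19i and 209, 207, and 224 CPM in 4i/L/b (log2 fold change -1.88, SE 0.14, adjusted p = 8e-09), and primed cells had 4.28 to 10.2 CPM (median 6.58). LEF1, a partner of beta-catenin, was 33.8, 36.3, and 29.9 CPM in TL-CDK8/19i and 153, 139, and 138 CPM in 4i/L/b, with primed cells at 0 to 0.864 CPM (median 0). NKD1, a feedback inhibitor, was 43.2, 51.9, and 38.9 CPM in TL-CDK8/19i and 97.7, 108, and 107 CPM in 4i/L/b, LGR5, the R-spondin receptor, was 3.21, 2.75, and 4.59 CPM in TL-CDK8/19i and 22.3, 29.1, and 23.2 CPM in 4i/L/b, and NOTUM, a Wnt-inactivating enzyme, was the lowest (-3.20, SE 0.33). Both protocols were above primed cells for AXIN2, LEF1, and NKD1. The higher members were SP8 (2.10, SE 0.57), SP5 (0.69, SE 0.20), and DKK1 (0.50, SE 0.16), the last not called without 4i/L/b replicate 1 (adjusted p = 0.074). SP8 alone was called in the 27-library fit (SP5 adjusted p = 0.42, DKK1 adjusted p = 0.53).

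Readouts of MEK-ERK signaling were mixed, 6 higher and 7 lower of 21, close to the shares over all genes, with 3 higher in the 27-library fit. ETV4, an ETS factor induced by FGF, was 80.7, 62.8, and 93.2 CPM in TL-CDK8/19i and 1.96, 4.39, and 3.25 CPM in 4i/L/b, with primed cells at 143 to 209.7 CPM (median 175). EGR1, an immediate early gene, went the other way, at 139.7, 105, and 155 CPM in TL-CDK8/19i and 452, 394, and 423 CPM in 4i/L/b, with primed cells at 1079 to 1712 CPM (median 1448). DUSP6, the ERK phosphatase, was 328, 366, and 439 CPM in TL-CDK8/19i and 337, 288, and 311 CPM in 4i/L/b (log2 fold change 0.28, SE 0.10, adjusted p = 0.021). It was not called without TL-CDK8/19i replicate 3 (adjusted p = 0.13) or 4i/L/b replicate 2 or 3 (adjusted p = 0.11 and 0.066), nor in the 27-library fit (adjusted p = 0.087).

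The FGF list of ligands, receptors, and a binding protein had 8 higher and 2 lower of 15, with 1 lower in the 27-library fit. FGF2, which PSCs also secrete, was 160.2, 150, and 175 CPM in TL-CDK8/19i and 16.7, 16, and 14.6 CPM in 4i/L/b (log2 fold change 3.37, SE 0.10, adjusted p = 1.3e-12), with primed cells at 100.4 to 269 CPM (median 196), higher in set K than in set J. FGF1 was 44.1, 69.1, and 61.1 CPM in TL-CDK8/19i and 8.2, 7.48, and 6.68 CPM in 4i/L/b, above the primed 1.4 to 4.68 CPM (median 3.74), and FGF19 had a log2 fold change of 2.47, SE 0.25. FGFR2 was lower (-0.84, SE 0.09), FGF18 the lowest (-1.76, SE 0.37, not called in the 27-library fit, adjusted p = 0.16), and FGFR1 did not pass the test with all libraries (adjusted p = 0.13) and was lower without TL-CDK8/19i replicate 1 (-0.20, adjusted p = 0.045). FGF5, an epiblast ligand, had 0 counts in TL-CDK8/19i and 14 in 4i/L/b, at least 4.58-fold lower over the group.

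The Nodal-Activin list had 11 higher and 1 lower of 18. Beside TDGF1, GDF3, and CER1, FOXH1, a SMAD partner, was 7.74, 6.65, and 7.9 CPM in TL-CDK8/19i and 0.466, 1.19, and 1.58 CPM in 4i/L/b, far below the primed 38 to 49.5 CPM (median 39.3). NODAL was 17, 13.5, and 24.4 CPM in TL-CDK8/19i and 12.1, 15.1, and 10.8 CPM in 4i/L/b, with an adjusted p of 0.03 that became 0.23 without TL-CDK8/19i replicate 3 0.087 and 0.12 without 4i/L/b replicate 1 or 3, and 0.39 in the 27-library fit. ACVR2A, a receptor, was the lower member (-0.71, SE 0.16).

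BMP genes were divided, with 8 higher (47.1%) and 5 lower (29.4%) of 17, against 33.5% and 32.8% of all genes. The ligand BMP4 was 50.3, 52.9, and 37.2 CPM in TL-CDK8/19i and 12.5, 11.3, and 9.37 CPM in 4i/L/b, and the target gene ID1 was 42.6, 42.4, and 51.5 CPM in TL-CDK8/19i and 5.59, 7.84, and 4.45 CPM in 4i/L/b. ID3, also a target, was 73.4, 63.8, and 93.8 CPM in TL-CDK8/19i and 13.8, 15.4, and 15 CPM in 4i/L/b. ID2, of the same family, was lower, at 26.1, 27.1, and 26.9 CPM in TL-CDK8/19i and 60.8, 55.1, and 62.4 CPM in 4i/L/b. BMP5 was the lowest member, as given for the roof plate. In the TGF-beta list, 4 were higher and 5 lower of 14, close to the shares over all genes. The ligand TGFB3 was the highest (1.28, SE 0.14) and the receptor TGFBR1 the lowest (-0.87, SE 0.09).

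Targets and components of the Hippo pathway had 6 higher and 9 lower of 17. ANKRD1 was 730.3, 1180, and 955 CPM in TL-CDK8/19i and 342, 355, and 364 CPM in 4i/L/b and CTGF was 1234, 1347, and 1402 CPM in TL-CDK8/19i and 2867, 3382, and 3227 CPM in 4i/L/b, so these 2 YAP targets went in opposite directions. TEAD4, the TEAD of trophectoderm and of PSCs, was the highest (2.34, SE 0.16) and TEAD2, a TEAD of neural tissue, the lowest (-1.76, SE 0.13). Retinoic acid genes had 10 higher and 4 lower of 15, with 1 lower in the 27-library fit. The receptor RARB was 33.4, 41.9, and 44.7 CPM in TL-CDK8/19i and 1.68, 1.19, and 3.25 CPM in 4i/L/b, and the binding protein CRABP1 was 307, 206, and 208 CPM in TL-CDK8/19i and 848, 751, and 788 CPM in 4i/L/b. ALDH1A1, a retinal dehydrogenase, was the lowest member, at 1.88, 0.106, and 0 CPM in TL-CDK8/19i and 3.17, 4.28, and 3.25 CPM in 4i/L/b (-2.47, SE 0.73, and -1.82 without replicate 3). It was not called by DESeq2 (adjusted p = 0.16) or in the 27-library fit (adjusted p = 0.13). Replicates 2 and 3 held 1 count of it against 105 in 4i/L/b, a ratio of 71.39 (95% counting interval 12.54 to 2846).

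DNA methylation genes were divided. DNMT3B and TET1, the pair of PSCs, were higher, TET1 at 176, 133, and 172 CPM in TL-CDK8/19i and 47.5, 40.1, and 44.1 CPM in 4i/L/b. TET2 was lower, at 18.3, 14.5, and 10.3 CPM in TL-CDK8/19i and 66.5, 82.5, and 68.1 CPM in 4i/L/b. The maintenance enzyme DNMT1 was 226, 216, and 228 CPM in TL-CDK8/19i and 241, 215, and 216 CPM in 4i/L/b and did not pass the test (adjusted p = 0.98), and DNMT3A was lower (-0.39, SE 0.12), a call lost without TL-CDK8/19i replicate 3 or 4i/L/b replicate 2 (adjusted p = 0.053 and 0.059). In all, 3 of 9 were higher (33.3%) and 4 lower (44.4%), against 33.5% and 32.8% of all genes.

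Imprinted genes were lower in TL-CDK8/19i for 13 of 18 tested members and higher for 2 (1 in the 27-library fit), with a median of -0.96. MEST was 433, 679, and 475 CPM in TL-CDK8/19i and 1173, 1283, and 1274 CPM in 4i/L/b, and PLAGL1, a regulator of the imprinted network, was 75.7, 66.2, and 72.8 CPM in TL-CDK8/19i and 190.2, 191, and 193 CPM in 4i/L/b (log2 fold change -1.41, SE 0.09, adjusted p = 1.1e-09). PEG3 was 84.3, 0, and 0 CPM in TL-CDK8/19i and 188, 188, and 184 CPM in 4i/L/b, with a log2 fold change of -2.76 (SE 0.85, adjusted p = 0.0093), which DESeq2 did not call (adjusted p = 0.44). Without replicate 1 it was at least 1267-fold lower over the group, since replicates 2 and 3 held 0 counts, and without replicate 2 or 3 the log2 fold changes were -2.17 and -2.14. Primed cells had 30.2 to 59.2 CPM (median 43.7) of PEG3, above TL-CDK8/19i replicates 2 and 3. RTL1 was the lowest (-3.82, SE 0.36), and NNAT (neuronatin) the highest, at 96.6, 82.4, and 104 CPM in TL-CDK8/19i and 8.11, 11.4, and 11.1 CPM in 4i/L/b, with primed cells at 15.2 to 223 CPM (median 98.9), of which set J lay above TL-CDK8/19i and set K below it.

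HOX genes, which mark positions along the body axis, were scarce, with 16 of 38 passing the filter on low counts. Of the 16, 4 were higher (2 without 4i/L/b replicate 3, and 1 of 28 in the 27-library fit) and 3 lower. HOXB9 was the highest (1.69, SE 0.39, not called in the 27-library fit, adjusted p = 0.068) and HOXA2 the lowest, at 6.3, 5.28, and 2.94 CPM in TL-CDK8/19i and 14.3, 19.1, and 18.6 CPM in 4i/L/b.

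Cell cycle genes of the G1-S transition were divided 8 to 8 of 20, with 5 higher in the 27-library fit. The 40% in each direction compares with 33.5% and 32.8% of all genes. CCND1 (cyclin D1) was lower, at 241, 299.7, and 218 CPM in TL-CDK8/19i and 646, 583, and 608 CPM in 4i/L/b (log2 fold change -1.27, SE 0.10, adjusted p = 3.4e-08), CCNE1 (cyclin E1) was higher, at 58.6, 63, and 64.2 CPM in TL-CDK8/19i and 26.9, 27.9, and 32.2 CPM in 4i/L/b, and its paralog CCNE2 lower (-1.58, SE 0.21). CDKN2B, an inhibitor of CDK4, was the highest (1.72, SE 0.24) and CDKN2C, another, the lowest (-3.44, SE 0.76, and -4.58 without TL-CDK8/19i replicate 3). CDKN1A (p21) was 99.3, 137, and 89.3 CPM in TL-CDK8/19i and 71.2, 66.8, and 67.5 CPM in 4i/L/b, with both protocols above the primed 2.59 to 14.4 CPM (median 5.48). It was not called in the 27-library fit (adjusted p = 0.074).

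Apoptosis genes were higher in TL-CDK8/19i for 14 of 19 tested members (9 of 20 in the 27-library fit) and lower for 4. FAS, a death receptor, was 45.4, 40.5, and 46.6 CPM in TL-CDK8/19i and 5.97, 7.72, and 7.79 CPM in 4i/L/b, and MDM2, a ubiquitin ligase, was 179.5, 182, and 182 CPM in TL-CDK8/19i and 52.5, 48.3, and 47.3 CPM in 4i/L/b (log2 fold change 1.88, SE 0.09, adjusted p = 4.6e-11). The antiapoptotic BCL2L1 was higher (1.32, SE 0.10), MCL1 lower, at 353, 373, and 374 CPM in TL-CDK8/19i and 711, 651, and 699.7 CPM in 4i/L/b, and the proapoptotic BMF the lowest (-1.10, SE 0.14).

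Metabolic lists leaned in opposite directions. Glycolysis and hypoxia genes summed to 10400 to 11200 CPM in TL-CDK8/19i, 6300 to 6890 in 4i/L/b, and 10200 to 13400 in primed cells. In that order, cholesterol synthesis sums were 1940 to 2080, 3080 to 3170, and 1780 to 2170 CPM. For both lists TL-CDK8/19i lay within the primed range and 4i/L/b outside it. Glycolysis and hypoxia genes were higher for 19 of 26 and lower for 3, with the glucose transporter SLC2A3 at 1309, 1311, and 1407 CPM in TL-CDK8/19i and 242, 261, and 251 CPM in 4i/L/b and LDHA, lactate dehydrogenase, at 428, 398, and 438 CPM in TL-CDK8/19i and 187, 196, and 222 CPM in 4i/L/b. ADM (adrenomedullin) was the highest (3.57, SE 0.13) and PFKFB3 the lowest (-1.02, SE 0.08). Cholesterol synthesis genes were lower for 14 of 22 and higher for 1. HMGCS1, an early enzyme of the mevalonate pathway, was 237, 242, and 258 CPM in TL-CDK8/19i and 535, 445, and 492 CPM in 4i/L/b (log2 fold change -0.99, SE 0.09, adjusted p = 6.3e-08), and SQLE, squalene epoxidase, was 103, 122, and 122 CPM in TL-CDK8/19i and 195, 193, and 196 CPM in 4i/L/b (-0.74, SE 0.09).

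Genes of the ATF4 response to amino acid shortage were higher for 18 of 19, against 33.5% of all genes, with a median of 0.78. TRIB3 was 50.2, 56.3, and 53.8 CPM in TL-CDK8/19i and 10.2, 8.19, and 12.2 CPM in 4i/L/b, and PSAT1, of serine synthesis, was 416, 405, and 456 CPM in TL-CDK8/19i and 126, 119, and 128 CPM in 4i/L/b (log2 fold change 1.78, SE 0.08, adjusted p = 5.6e-11). NUPR1 was the highest (3.32, SE 0.57, 4.08 without 4i/L/b replicate 3, and not called in the 27-library fit, adjusted p = 0.081), and DDIT3 (CHOP) the lower member (-0.62, SE 0.23), which was not called without TL-CDK8/19i replicate 2 or 3 (adjusted p = 0.11 and 0.067) or 4i/L/b replicate 2 or 3 (adjusted p = 0.069 and 0.08), nor in the 27-library fit (adjusted p = 0.14). Respiratory chain genes were higher for 13 of 25 and lower for 1, by at most 0.76 on the log2 scale (COX4I1), with NDUFA2 the lower (-0.42, SE 0.17), a call lost without TL-CDK8/19i replicate 1 or 2 (adjusted p = 0.056 and 0.14) or 4i/L/b replicate 2 or 3 (adjusted p = 0.089 and 0.15), by DESeq2 (adjusted p = 0.073), and in the 27-library fit (adjusted p = 0.11), and gained by a further member without TL-CDK8/19i replicate 3.

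Interferon-stimulated genes had 5 higher and 4 lower of 13, close to the shares over all genes, with 3 of 18 higher in the 27-library fit. IFITM1, an antiviral membrane protein that PSCs express constitutively, was 227, 182, and 264 CPM in TL-CDK8/19i and 0, 0.237, and 0.0927 CPM in 4i/L/b, with 6650 and 3 counts, a ratio of 2257 (95% counting interval 771.9 to 10950), and primed cells had 349 to 428 CPM (median 369.7). IRF1 was the lowest (-2.31, SE 0.32), and the induced genes IFIT1, IFIT2, IFIT3, and OAS1 were under the filter on low counts.

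Among called genes whose groups did not overlap and whose log2 CPM averaged 3 or more, the 10 with the highest log2 fold changes held POU5F1, NANOG, PRDM14, DPPA2, IFITM1, and KRT7. The other 4 were SLC38A4, an amino acid transporter that is imprinted in mouse, GALR1, a galanin receptor, CLIC5, a chloride channel protein, and MYL4, the embryonic and atrial myosin light chain. SLC38A4 was 148, 145, and 138 CPM in TL-CDK8/19i and 0, 0, and 0.185 CPM in 4i/L/b, with 2 counts in all 4i/L/b libraries, and MYL4 was 118, 165, and 143 CPM in TL-CDK8/19i and 0.466, 0.594, and 0.464 CPM in 4i/L/b. CLIC5 (55.5, 81.3, and 58.2 CPM) and MYL4 were near 0 in primed cells too, with highest primed levels of 0.474 and 1.52 CPM. GALR1 was 24.3, 21.1, and 25.4 CPM in TL-CDK8/19i and 0.0932, 0, and 0 CPM in 4i/L/b, with 27.3 to 50.3 CPM (median 38.5) in primed cells.

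Among the 10 with the lowest, ESR1 is described above. CCL2, a monocyte chemokine, was 0.111, 1.48, and 1.01 CPM in TL-CDK8/19i and 70.2, 74.1, and 49.4 CPM in 4i/L/b, ADAMTS16, a matrix protease, was 7.18, 9.51, and 4.23 CPM in TL-CDK8/19i and 284, 321, and 272 CPM in 4i/L/b (log2 fold change -5.40, SE 0.17, adjusted p = 1.7e-12), and FMOD (fibromodulin), a collagen-binding proteoglycan, was 1.55, 0.422, and 0.276 CPM in TL-CDK8/19i and 20.8, 31.2, and 24.1 CPM in 4i/L/b. SOST (sclerostin), a secreted Wnt inhibitor, was 0.552, 0.106, and 0.276 CPM in TL-CDK8/19i and 17.6, 20.7, and 16.2 CPM in 4i/L/b. Replicate 1 was the highest TL-CDK8/19i library for FMOD, SOST, CACNA1E, and PCDHB2, whose log2 fold changes were -5.11, -5.82, -4.88, and -5.53 with it and -6.14, -6.43, -5.68, and -6.16 without it. The neural genes were GABRB2, a GABA receptor chain, at 0.552, 0.317, and 0.46 CPM in TL-CDK8/19i and 35.4, 26.5, and 27.7 CPM in 4i/L/b, NTNG1, a netrin relative, at 3.31, 2.75, and 1.1 CPM in TL-CDK8/19i and 94.8, 107, and 89.8 CPM in 4i/L/b, and CACNA1E, a calcium channel, at 9.06, 2.64, and 2.76 CPM in TL-CDK8/19i and 129, 149, and 142 CPM in 4i/L/b. PCDHB2 (1.1, 0.211, and 0.551 CPM in TL-CDK8/19i and 27, 31.1, and 29.1 CPM in 4i/L/b) and PCDHB3 (0.773, 0.951, and 0.735 CPM in TL-CDK8/19i and 35.8, 40, and 34.5 CPM in 4i/L/b) belong to a cluster of near-identical protocadherins, so their counts depend on how shared reads were assigned. Promoter motifs of the differing genes were not analysed here.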

How the data were processed

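Directional mRNA libraries were made from 200 ng of RNA and sequenced as single reads of 75 bp, per the labels. The authors deposited whole-number counts by gene symbol that were not normalized, and the submitters' processing notes name bcl2fastq, cutadapt, HISAT2, and HTSeq without versions. The genome build and annotation are not given in the sources used here. Reads of a transgene may have been counted with the endogenous gene, and genes absent from the annotation have no counts.

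Counts of the 3 TL-CDK8/19i and 3 4i/L/b libraries were fitted with edgeR 4.0.16 in R 4.3.3 (TMM factors, filterByExpr, glmQLFit, and glmQLFTest), and p-values were adjusted by Benjamini-Hochberg over the 13445 genes that passed the filter. Each protocol was fitted likewise against the 6 primed libraries pooled, and, as an alternative chosen after seeing the data, against each of the 2 sets of 3 (J and K) that the count columns name. The titles name 2 primed sets as well, which no source ties to J and K. Levels are CPM with TMM factors over these 12 libraries, or over all 27 for values set beside other protocols. Folds of genes with at most 3 counts in a group are given as bounds or as ratios with exact binomial intervals of the counts. The scripts were tested on simulated counts.

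The 39 gene lists held 782 entries, of which 746 were found in the tables. The comparison and the lists were chosen with earlier results of these data known. Named genes are the called members with the highest and lowest log2 fold change of each list, further members where a role needed them, all members of the core pluripotency, collagen, and Mediator lists, and the 10 genes at each end among called genes whose groups did not overlap and whose log2 CPM averaged 3 or more. A few list members that this rule names are not reported here, but remain in the counts of their lists. The list of DNA motifs planned for promoters was not run because no promoter sequences were at hand. Alternatives covered the scaling, the filter, the prior count, the tool (DESeq2 1.42.0), the libraries in the fit, a replicate block, and each library left out.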

Additional observations from a re-analysis of the deposited data

Results flagged for a closer look

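Among the 37 genes whose primed levels are given, 3 had a primed library far from the other 5 by Dixon's criterion, which chance alone meets in about 1 of 20 groups. SPP1 was 2740 CPM in 1 primed library, against at most 1410 CPM in the others, and this library alone came near the TL-CDK8/19i range. FOXH1 was 49.5 CPM in 1 primed library, against at most 42.3 CPM in the others. LEF1 was 0.864 CPM in 1 primed library and 0 in the other 5, a pattern that meets the criterion at any level above 0.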

How the results depend on the processing

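The counts of genes called stayed within 1.5 times their values under every alternative run. Genes higher in TL-CDK8/19i numbered 3466 to 4636 and genes lower 3157 to 4629 over the other scalings, filters, tools, and sets of libraries, with the lowest counts in the fit of all 27 libraries. With each library left out they numbered 4153 to 4584 and 4041 to 4533, and those at least 2-fold apart 1812 to 1960 and 1699 to 2088. The share of calls in the higher direction was 48.2% to 52.3%. With the replicate number as a replicate block, 4391 genes were higher and 4329 lower; the residuals of same-numbered libraries correlated at -0.033, 0.015, and 0.026, so the numbers were not taken to pair the libraries. The block ended the calls of SOCS3 and NDUFA2 among the genes named.

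For genes named and called, 2990 of 3057 values kept direction and call, 67 lost the call, and 0 turned direction. DESeq2 lost ALDH1A1, LMX1A, and PEG3 (adjusted p = 0.16, 0.16, and 0.44), and NDUFA2 and SOCS3 (adjusted p = 0.073 and 0.051). The fit of all 27 libraries lost 24 (adjusted p = 0.068 to 0.53), each given beside its result or, for KLF5 and SUSD2, here (adjusted p = 0.37 and 0.2). Genes near 0 that were not called changed sign. DNMT1 was -0.03 with upper-quartile factors, -0.01 without a filter, and -0.03 to 0.06 with a library left out. With a library left out, the Mediator genes MED13 and MED13L ranged from -0.07 to 0.01 and from -0.14 to 0, and VIM from -0.19 to 0.06. Of 1014 counts of list members, 64 moved by over 1.5 times, in the fit of all 27 libraries, with a library left out, or under the filter of 10 counts in every library. The lower count of primed state genes also moved without a filter, and that of mitochondrial respiration genes by DESeq2 and with the replicate block. The filter of 10 counts tests fewer members, and under it the higher counts were 4 of 7 for the naive state, 4 of 10 for mesoderm and endoderm, 4 of 8 for trophoblast and amnion, 2 of 4 for endothelium and blood, 3 of 8 for interferon-stimulated genes, and 1 of 15 for imprinted genes, and the lower counts 9 of 16 for neurons, 2 of 10 for endoderm and retinoic acid, and 0 of 4 for muscle. Under it, 10 of 10 tested core pluripotency genes were higher. At these depths a gene at 0 counts in a library is known only to lie below 0.276 to 0.356 CPM there. Against primed set J alone, SALL1 in TL-CDK8/19i was 0.05 on the log2 scale, and against set K alone SFRP2 was 0.12, both turned in sign from pooled values near 0 and neither called. The fits with 1 primed set were chosen after seeing the data.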

Other observations

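ESR1 counts divided the other protocols of the series as well. On the scale of all 27 libraries it was 1200 to 1300 CPM in NHSM-v, 349 to 411 CPM in t2iLGöY, and 225 to 231 CPM in TL2i, and it was 0 to 0.61 CPM in E-NHSM and 0 to 0.372 CPM in LCDM (EPS). No library other than TL-CDK8/19i replicate 1, at 35.1 CPM, lay between 0.859 and 225 CPM. TL-CDK8/19i, a protocol that relies on STAT3-ERT2, had 1 and 5 ESR1 counts in replicates 2 and 3, whereas TL2i, which relies on it too, had 3192 to 4737.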
